A study of Mus musculus with 6 samples.

Results

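The Cdh1 locus is described here through SMAD1/5 peaks called by ChIP-seq in mouse cells. It was taken as mm9 chromosome 8 from 109030000 to 109230000, a 200 kb interval that holds Cdh1, whose start is stated as near 109.13 Mb. Every peak that overlapped this interval was kept, which gave 21 of the 24441 peaks in 4 lists. The locus was chosen by the peak counts of the ESC lists themselves, as 109.1 to 109.2 Mb was among the windows richest in ESC peaks. Its density and its ESC calls are therefore descriptions, with no test. No mm9 annotation was used, so peaks are given by their distance from the stated start, above it towards higher coordinates and below it towards lower ones. That start is rounded to 10 kb, and peaks within about 5 kb of it cannot be placed on either side of it. In the gene table at hand, which belongs to another build and was used only for names and order, Cdh1 lies between the protein-coding genes Cdh3 and Tango6. Cdh3 encodes P-cadherin. Which peaks fall in an exon, an intron or a neighbouring gene was not analysed here.

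Cdh1 encodes E-cadherin, the calcium-dependent adhesion protein that joins epithelial cells to each other and holds embryonic stem cell colonies together. Its loss is a hallmark of the epithelial-to-mesenchymal transition, in which repressors of the Snail and Zeb families silence it. SMAD1 and SMAD5 are transcription factors that receptors for bone morphogenetic proteins (BMPs) phosphorylate. They then enter the nucleus with SMAD4 and bind regulatory DNA.

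The lists came from 4 libraries, each the only library of its group. Primed epiblast stem cells derived from ESCs (ESD-EpiSCs) were kept with FGF2 and Activin A and given 10 ng/ml BMP-4 for 24 h in 1 group and for 1.5 h in the other. Naive E14 embryonic stem cells (ESCs) were kept in LIF+BMP-4, with BMP-4 at 10 ng/ml, or in LIF+serum. Both cell types come from the single line E14. All 4 were precipitated with the same anti-Smad1 antibody clone, and the labels describe the target as Smad1/5. With 1 library per group, differences between groups have no replicate check, and none was tested. Cell state, culture medium, BMP-4 exposure and library cannot be told apart between ESD-EpiSCs and ESCs. The whole lists held 133 peaks at 24 h, 225 at 1.5 h, 14696 for LIF+BMP-4 ESCs, and 9387 for LIF+serum ESCs. The lists give peaks and not reads, so sequencing depth is unknown and a missing call is not a place without binding. The files hold no expression values, so neither the cell types nor Cdh1 expression could be checked.

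SMAD1/5 was called at many places around Cdh1 in naive ESCs and at none in ESD-EpiSCs. The interval held 0 peaks at 24 h and 0 at 1.5 h of BMP-4 in ESD-EpiSCs, against 12 peaks in LIF+BMP-4 ESCs and 9 in LIF+serum ESCs. As background, 0.902% of all 200 kb windows held a 24 h peak and 1.47% a 1.5 h peak, while 0.296% held as many LIF+BMP-4 peaks and 0.194% as many LIF+serum peaks as this interval. The LIF+BMP-4 peaks covered 9524 bp and the LIF+serum peaks 13038 bp, which is 4.76% and 6.52% of the interval. Merging both ESC lists gave 13 separate regions. Of these, 7 had a peak in both media, 4 had a peak in LIF+BMP-4 alone and 2 had a peak in LIF+serum alone. Over the whole lists, 38.7% of LIF+BMP-4 peaks and 58.8% of LIF+serum peaks met a peak of the other medium. These shares count peaks and not merged regions, so they are not a background for the 7 of 13 regions.

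**Figure D1:**
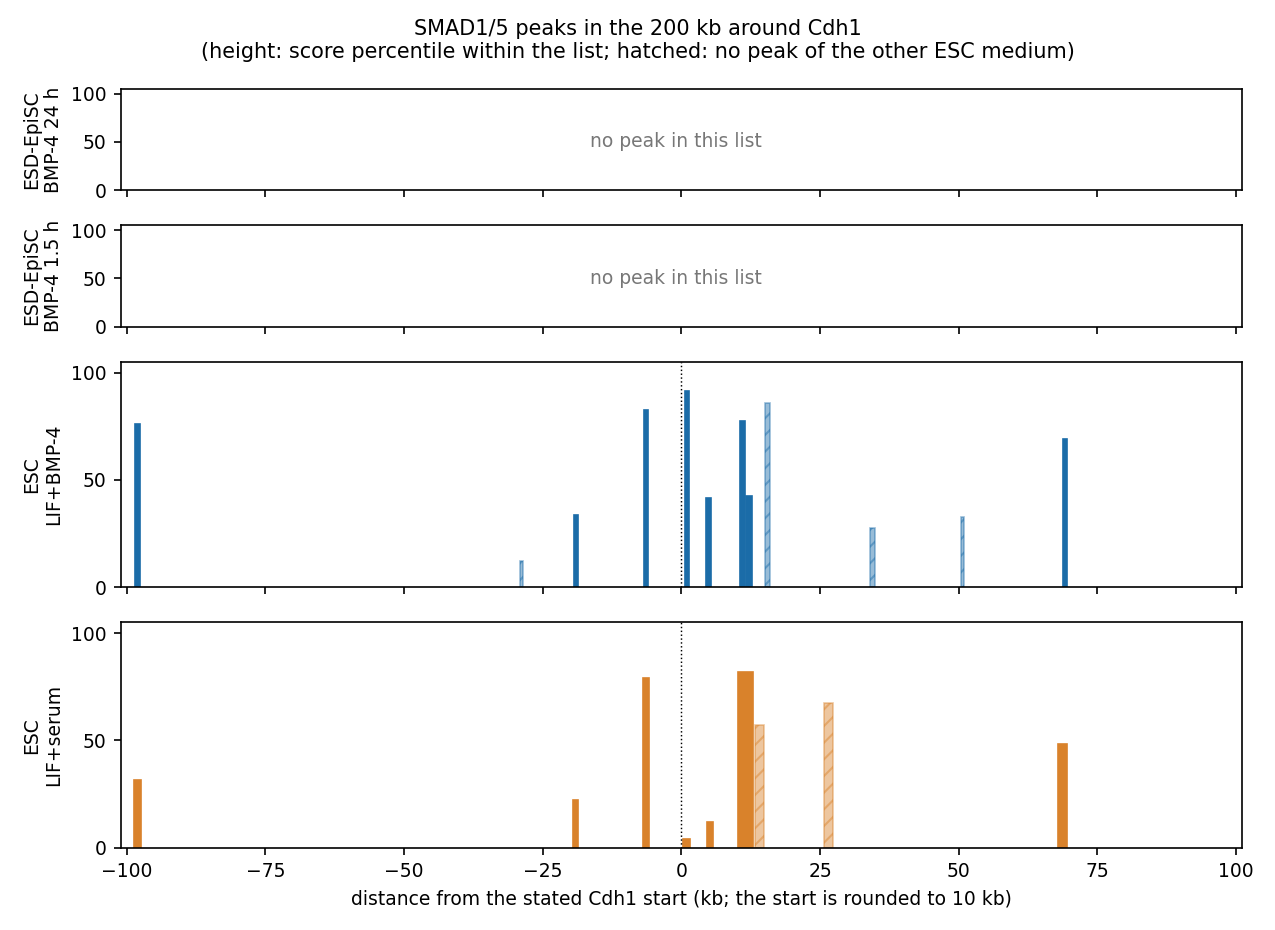
Peaks of the 4 lists along the 200 kb interval, by distance from the stated Cdh1 start in kb. Bar width is the peak's width and bar height is its score percentile within its own list; hatched bars have no overlapping peak in the other ESC medium. The ESD-EpiSC rows are empty, while most ESC peaks gather within 20 kb of the stated start.

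The peaks were not spread evenly over the interval. Within 20 kb of the stated start lay 7 of the 12 LIF+BMP-4 peaks and 6 of the 9 LIF+serum peaks, in a stretch of 35.5 kb from 109110397 to 109145908. The median gap between neighbouring peaks at the locus was 9.20 kb for LIF+BMP-4, against 8.47 kb for LIF+serum. Over the whole lists, the median gap was 45.3 kb for LIF+BMP-4, against 71.2 kb for LIF+serum. Since the interval was picked for its density, shorter gaps than those of the whole lists follow from that choice. The widest empty stretch at the locus ran between the first peak and the next, 68.6 kb for LIF+BMP-4, against 77.9 kb for LIF+serum. Beyond the peaks near 69 kb on the other side of the start, neither ESC list had a further call in the interval.

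The site closest to the stated start of Cdh1 was called in both media, at very different places in the 2 rankings. In LIF+BMP-4 it was the peak at 109130574 to 109131358, 785 bp wide, which ranked 1241 of 14696 peaks and 1 of 12 at the locus. In LIF+serum it was the peak at 109130323 to 109131611, 1289 bp wide, which ranked 8982 of 9387 peaks and 9 of 9 at the locus. The LIF+BMP-4 peak lay inside the LIF+serum peak and their midpoints were 1 bp apart. So the same place carried the highest-ranked LIF+BMP-4 call and the lowest-ranked LIF+serum call of the locus. Ranks come from the authors' score per peak, whose scale is not given. Ranks within separate lists describe those lists and do not measure a change in binding. Because the stated start is rounded to 10 kb, a neighbouring site may lie closer to the actual start of Cdh1.

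A site 6.35 kb below the stated start ranked high in both media. Its LIF+BMP-4 peak, at 109123285 to 109124045, was 761 bp wide and ranked 2557 in its list. Its LIF+serum peak, at 109123116 to 109124178, was 1063 bp wide and ranked 1972. By score percentile they stood at 82.6 for LIF+BMP-4, against 79.0 for LIF+serum. A site about 5 kb from the stated start was below the median of both lists. Its LIF+BMP-4 peak, at 109134436 to 109135401, ranked 8589 (percentile 41.6), and its LIF+serum peak, at 109134581 to 109135670, ranked 8256 (percentile 12.1).

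A broad site lay 11 to 12 kb above the stated start and was split in 1 list only. In LIF+BMP-4 it was called as a pair of peaks 162 bp apart, at 109140529 to 109141546 (rank 3284) and at 109141709 to 109142673 (rank 8439). In LIF+serum a single peak of 2598 bp, at 109140280 to 109142877, spanned them both. That LIF+serum peak was the highest of the locus at rank 1709, and its width was at percentile 99.7 of its list. Immediately above it the media parted. LIF+serum had a peak at 109143283 to 109144867 (rank 4007), while LIF+BMP-4 had one at 109145038 to 109145908 (rank 2056, and rank 2 of 12 at the locus). These 2 calls were separated by 170 bp and so counted as unshared.

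Further from the stated start, 3 more sites were shared by both media. The outermost shared site below it, 98.1 kb away, had the LIF+BMP-4 peak at 109031445 to 109032314 (rank 3508) and the LIF+serum peak at 109031379 to 109032485 (rank 6433). A shared site 19.0 kb below had the LIF+BMP-4 peak at 109110668 to 109111274 (rank 9732) and the LIF+serum peak at 109110397 to 109111415 (rank 7279). The outermost shared site above had the LIF+BMP-4 peak at 109198781 to 109199460 (rank 4541) and the LIF+serum peak at 109197978 to 109199533 (rank 4860). The 2 outermost sites were thus above the median of the LIF+BMP-4 list (score percentiles 76.1 and 69.1) and below that of the LIF+serum list (31.5 and 48.2). The site at 19.0 kb was below the median of both (33.8 for LIF+BMP-4, against 22.4 for LIF+serum).

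The remaining calls in LIF+BMP-4 alone were the lowest of the locus, while that in LIF+serum alone was not. In LIF+BMP-4 alone there were peaks at 109100932 to 109101468 (rank 12885), 109163967 to 109164881 (rank 10620) and 109180467 to 109181015 (rank 9876). These were ranks 12, 11 and 10 of the 12 at the locus. In LIF+serum alone there was a peak of 1731 bp at 109155665 to 109157395 (rank 3035), which was rank 3 of 9 at the locus, and the nearest LIF+BMP-4 peak was 6.57 kb away.

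Taken as shares, 8 of the 12 LIF+BMP-4 peaks at the locus met a LIF+serum peak (66.7%, exact Clopper-Pearson 95% interval 34.9 to 90.1), where the whole LIF+BMP-4 list gave 38.7%. Of the LIF+serum peaks at the locus, 7 of 9 met a LIF+BMP-4 peak (77.8%, 40.0 to 97.2), where the whole LIF+serum list gave 58.8%. The intervals cover counting error only, over peaks of 1 library that are not independent, in an interval picked for its density. The shares are therefore given as descriptions. With each peak extended by 1 kb they were 75.0% for LIF+BMP-4, against 88.9% for LIF+serum. The counts differ because a single LIF+serum peak met 2 LIF+BMP-4 peaks.

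All ESC peaks at the locus were wider than the median of their own list, although their scores were not unusually high. The 12 LIF+BMP-4 peaks were 537 to 1018 bp wide, with a median of 827.5 bp against 500 bp for the list. The 9 LIF+serum peaks were 1019 to 2598 bp wide, with a median of 1289 bp against 811 bp. By score, 6 of 12 LIF+BMP-4 peaks and 4 of 9 LIF+serum peaks were in the upper part of their list, above its median. The median score percentile at the locus was 55.8 for LIF+BMP-4, against 48.2 for LIF+serum. The locus was thus dense in wide peaks of average rank.

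Because the ESC lists differ in length, the shared sites were also ranked among the 5330 pairs in which 1 peak of each medium overlapped only its partner, which gives both media the same scale. The locus held 6 such pairs. Across all pairs the ranks of the 2 media followed each other only loosely (Spearman's rho 0.46 across pairs, which are not replicates). The pair nearest to the stated Cdh1 start ranked 1076 for LIF+BMP-4, but 5172 for LIF+serum. Only 29 of 5330 pairs (0.544%) had a gap at least as large in that direction. Attention was drawn to this pair by its values. For each of the other 5 pairs at the locus, 14.5% to 59.6% of all pairs had a signed gap as large or larger. The pair 6.35 kb below the start was the only 1 of the 6 to rank better in LIF+serum, at 1616, than in LIF+BMP-4, at 1936.

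**Figure D2:**
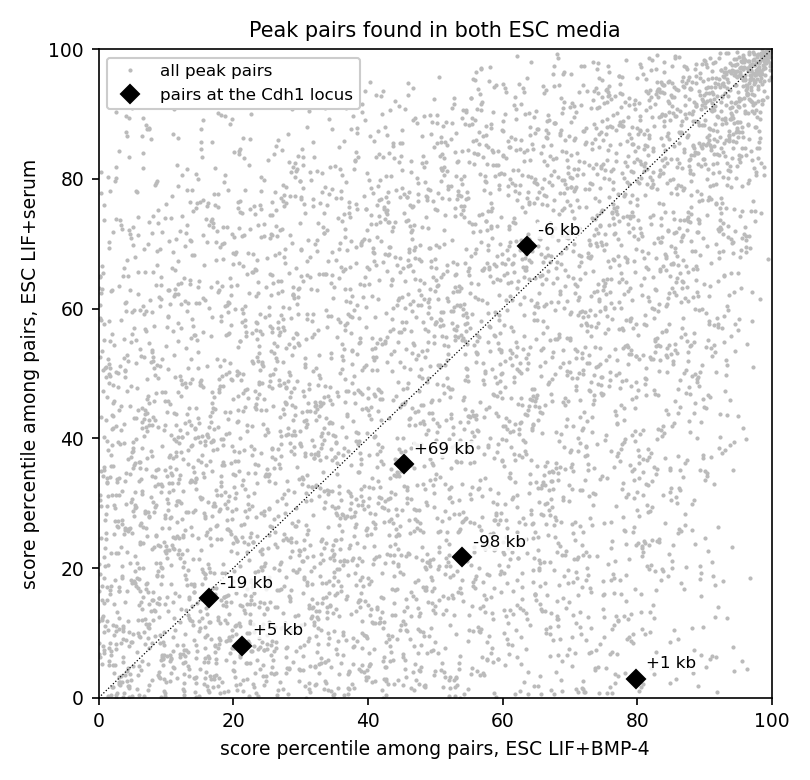
Score percentile of each peak pair among all 5330 pairs, for LIF+BMP-4 on the x axis, against LIF+serum on the y axis; grey points are all pairs and black diamonds the 6 pairs at the Cdh1 locus, marked with their distance from the stated start. The pair nearest to the stated start, marked +1 kb, lies far below the diagonal, at percentile 79.8 for LIF+BMP-4, against 2.97 for LIF+serum.

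The pairs at the locus lay about as close together as other pairs. Their midpoints were 1 to 365 bp apart with a median of 58.8 bp, against a median of 70.5 bp over all pairs. The LIF+BMP-4 peak lay inside the LIF+serum peak in 5 of 6 pairs at the locus and in 69.6% of all pairs. The median ratio of LIF+BMP-4 width to LIF+serum width was 0.66 at the locus and 0.67 over all pairs. LIF+BMP-4 calls were thus the narrower ones across the lists as well as here.

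Set against the genome, the Cdh1 interval was far above the average window in both ESC lists. In windows of 200 kb, with each peak counted by its midpoint, the mean was 1.14 LIF+BMP-4 peaks and 0.73 LIF+serum peaks over 12857 windows. The Cdh1 window held 10.5 times the LIF+BMP-4 mean and 12.3 times the LIF+serum mean. At least as many peaks were found in 38 windows (0.296%) for LIF+BMP-4 and in 25 windows (0.194%) for LIF+serum. The next lower counts were those of 21 windows with 11 LIF+BMP-4 peaks and of 31 windows with 8 LIF+serum peaks. The highest counts in any window were 21 LIF+BMP-4 peaks and 19 LIF+serum peaks. Chromosome 8 itself was rich in ESC peaks. With 644 of the 12857 windows, it held 7.62% of the LIF+BMP-4 peaks and 7.00% of the LIF+serum peaks. Of the ESD-EpiSC peaks, it held 16.5% at 24 h and 15.1% at 1.5 h. It also held 8 of the 38 windows as dense in LIF+BMP-4 and 5 of the 25 as dense in LIF+serum. The excess over the mean is therefore smaller within chromosome 8 than over the genome. Since the interval was picked for its density, these values place it and test nothing.

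**Figure D3:**
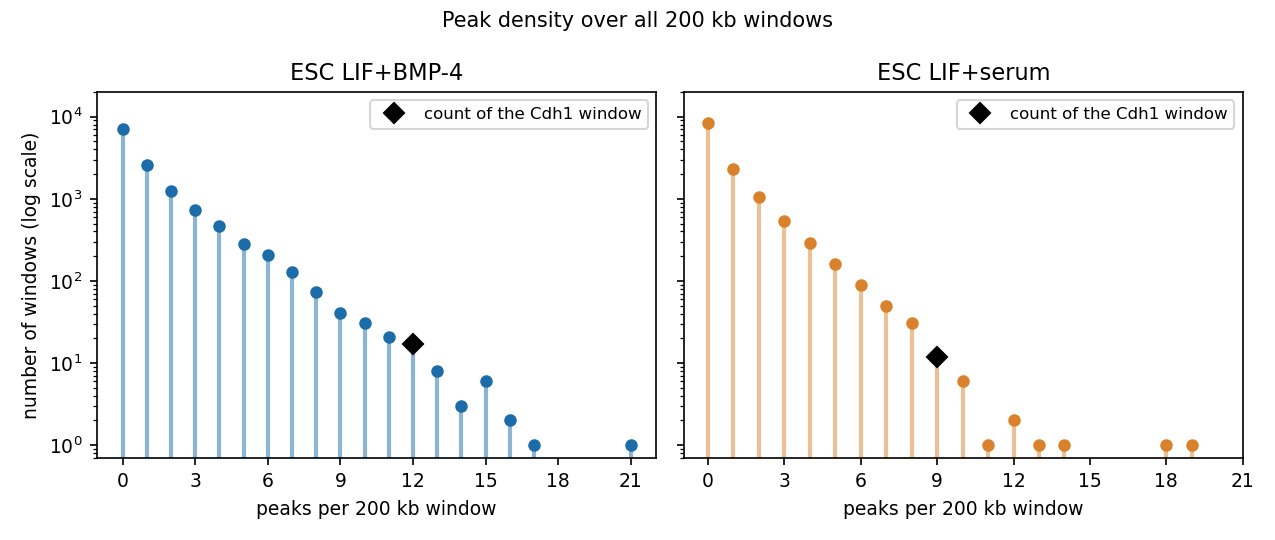
Number of 200 kb windows (y axis, log scale) by peaks per window (x axis), LIF+BMP-4 on the left and LIF+serum on the right. The black diamond marks the count of the Cdh1 window, 12 for LIF+BMP-4, against 9 for LIF+serum, in the thin upper tail of each distribution.

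The density was local. In the 100 kb window from 109.1 to 109.2 Mb there were 11 LIF+BMP-4 peaks and 8 LIF+serum peaks. Over the 20 windows of the same size within 1 Mb on both sides, the median was 2 LIF+BMP-4 peaks and 1 LIF+serum peak. The window directly above the Cdh1 window held 0 peaks in both media. A second dense window lay 300 kb above it, with 10 LIF+BMP-4 peaks and 6 LIF+serum peaks. No gene is assigned to it here. The ESC peaks nearest to the interval from outside were 28.7 kb below it in LIF+BMP-4 (rank 5066) and 28.6 kb below it in LIF+serum (rank 4074), and above it 83.8 kb away in LIF+BMP-4 and 165.6 kb in LIF+serum.

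**Figure D4:**
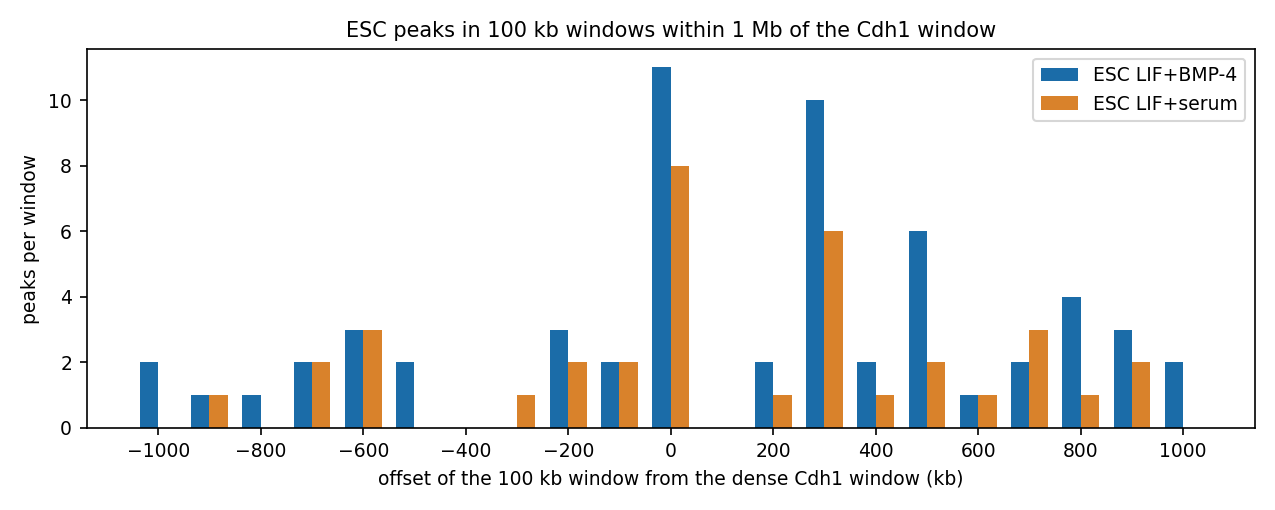
ESC peaks per 100 kb window (y axis) by the window's offset from the dense Cdh1 window in kb (x axis), with LIF+BMP-4 left of LIF+serum. The Cdh1 window at 0 stands highest with 11 and 8 peaks, and the window at 300 kb comes next with 10 and 6.

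Only 11 windows of the genome, the Cdh1 window included, were as dense as it in both media. Among the other 10, the share of LIF+BMP-4 peaks that met a LIF+serum peak ran from 43.8% to 81.3% with a median of 66.7%, the same value as at Cdh1. Their median LIF+BMP-4 width ran from 458 to 911 bp, and 8 of the 10 were below the 827.5 bp of the Cdh1 window. Their median LIF+serum width ran from 811 to 1693 bp, and 8 of 10 were below the 1289 bp of the Cdh1 window. Their median score percentile was above that of the Cdh1 window in 7 of 10 for LIF+BMP-4 and in 8 of 10 for LIF+serum. Among the densest ESC windows, Cdh1 thus stood on the wide and lower-ranked side in both media. Its median gap between LIF+BMP-4 peaks, 9199 bp, was longer than in 7 of the other 10 windows. Across those 10, the median gap ran from 4240 to 11884 bp.

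The absence of ESD-EpiSC calls at Cdh1 has to be read against how few such calls there were anywhere. The nearest ESD-EpiSC peaks on chromosome 8 were 9.59 Mb below the interval at 24 h and 2.02 Mb above it at 1.5 h. Of the LIF+BMP-4 peaks genome-wide, 0.197% met a 24 h peak and 0.374% a 1.5 h peak. Of the LIF+serum peaks, 0.256% met a 24 h peak and 0.575% a 1.5 h peak. At each of these rates, fewer than 1 of the 12 LIF+BMP-4 peaks or 9 LIF+serum peaks of any such group would meet an ESD-EpiSC peak.

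Even strong or dense ESC sites seldom had an ESD-EpiSC call. Of the 1241 LIF+BMP-4 peaks ranked at least as high as the best of the locus, 30 (2.42%, exact 95% interval 1.64 to 3.43) met an ESD-EpiSC peak of either time. Of the 1710 LIF+serum peaks ranked at least as high as the best of the locus, 38 (2.22%, 1.58 to 3.04) did. An ESD-EpiSC peak was held by 2 of the 38 windows as dense in LIF+BMP-4 (5.26%, 0.644 to 17.7) and by 1 of the 25 windows as dense in LIF+serum (4.00%, 0.101 to 20.4). It was held by 0 of the 11 windows as dense in both media, with an upper bound of 28.5%. Among all 6463 windows with an ESC peak, 213 (3.30%, 2.87 to 3.76) held one. Each of these sets of peaks or windows includes the Cdh1 locus itself, which had no ESD-EpiSC call. The empty ESD-EpiSC lists at Cdh1 therefore do not set it apart from other ESC sites, and whether SMAD1/5 was bound there in ESD-EpiSCs was not detectable from these lists.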

How the data were processed

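SMAD1/5 ChIP-seq peak lists from 4 libraries were used; 2 input libraries were not analysed here. The build is mm9, and the tools listed are MACS 1.4.2, Bowtie 1.1.0 and Picard, per the submitters' processing notes, which assign them no role. The deposited score of each peak is the authors' own value. Not given in the sources used here are its scale, the control library, read filters and depth. It served only to rank or filter peaks within a list.

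From the deposited positions, analysed with scipy 1.17.1, pandas 2.3.3 and numpy 2.4.6 under Python 3.11.15, peaks overlapping the interval were taken. Positions are printed 1-based. Peaks were shared when they overlapped by at least 1 bp, and overlapping or touching peaks were merged. Percentiles run from 0 (lowest score or width) to 100. Windows ran between the first and last peak of each chromosome, because chromosome lengths were not at hand. Overlap and window counting were tested on simulated data whose answers were known. All peaks at the locus are named, as no list had more than 12. The locus, members and settings were chosen with earlier results of these data known. Sequence under the peaks was not analysed here.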

Additional observations from a re-analysis of the deposited data

How the results depend on the processing

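No paired analysis was possible because each group is 1 library. At the locus, 5 of 12 LIF+BMP-4 peaks and 2 of 9 LIF+serum peaks scored at least 100. In the whole lists, 4372 of 14696 LIF+BMP-4 peaks and 2165 of 9387 LIF+serum peaks did. With that score in both lists, 2 merged regions had a peak in both media and 100% of the LIF+serum peaks (2 of 2) met a LIF+BMP-4 peak. In the other direction the share fell: 40.0% of the 5 LIF+BMP-4 peaks met a LIF+serum peak (exact 95% interval 5.27 to 85.3), against 66.7% without the cut-off. Whole-list shares at that cut-off are not given here. The same cut-off put 2.74% of windows at or above the LIF+serum count, since 352 windows held at least 2 such peaks. The LIF+serum density at Cdh1 thus rests on calls below that score, where most calls of the whole LIF+serum list also lay. With 100 kb windows, the share of windows as dense was 0.0623% for LIF+BMP-4 and 0.0623% for LIF+serum. By bases covered, 0.101% of windows reached the LIF+BMP-4 value and 0.0700% the LIF+serum value. LIF+BMP-4 peaks that met no LIF+serum peak had a median score percentile of 30.3, against 55.8 for all 12. LIF+serum peaks went the other way: the 2 that met no LIF+BMP-4 peak had a median of 62.5, against 48.2 for all 9. The causes were not tested. Of 46 planned settings, 36 stayed within the limit (1.5 times for counts, the 95% interval for shares and medians). Among them were the 40.0% share, the LIF+serum median of 62.5, and the 0 ESD-EpiSC peaks with the interval widened by 500 kb. With a LIF+BMP-4 list as long as the LIF+serum list, 8 of the 12 peaks remained at the locus, at the edge of the limit for counts. Of these 8 peaks, 87.5% met a LIF+serum peak. Of the 9 LIF+serum peaks, 66.7% met a peak of the shortened list. The order of the 2 shares was thus reversed, although each stayed within its limit. The percentiles and counts of the locus rest on 12 and 9 peaks, and unknown depth limits what a missing call shows.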
